A study of Mus musculus with 6 samples.

Results

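The genes described here are 10 that the tumour suppressor p53 is known to switch on for cell cycle arrest, or to use for feedback on itself and on growth signalling, measured by their nascent transcription. They are *Gadd45a*, *Btg2*, *Tob1*, *Ccng1*, *Plk2*, *Plk3*, *Trp53inp1*, *Phlda3*, *Sesn1* and *Ckap2*, found by symbol in the deposited table, with earlier results of these data known when the list was drawn up, and all 10 are among its 14546 genes. The table holds 6 PRO-seq libraries of proliferating mouse muscle stem cells (MuSCs). The 3 Ctrl libraries carry Pax7CreERT with wildtype *Suv4-20h1*, an older name of *Kmt5b*. The 3 Kmt5b sKO libraries carry Pax7CreERT and the knockout of this gene, a histone methyltransferase that converts H4K20me1 to H4K20me2. By the study's methods the cells came from limb and trunk muscle of adult mice on a C57BL/6 background, were purified by magnetic sorting and were cultured on Matrigel with serum, LIF and bFGF. Cre is driven by *Pax7*, a gene of satellite cells, and tamoxifen activates it, so that the deletion depends on each cell having expressed *Pax7*. The study describes the libraries as biological replicates, but nothing in the labels says whether those of a group came from separate mice, and the p-values below measure the spread between libraries only.

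PRO-seq extends the RNA of engaged polymerases with biotin-labelled nucleotides in isolated nuclei, and the labelled ends show where polymerases were transcribing, not how much mRNA had accumulated. The authors counted sense reads in the TSS region, the first 400 nt of a transcript, given as RPM, reads scaled to a fixed total per library, and in the gene body that follows, given as TPM, which also divides by length. The ratio of both values is the pausing index. RPM and TPM are different scales, so an index of 1 does not mean equal density, and the index is used here only to compare genes and libraries. The listed genes held 926904 to 3246052 reads of TSS regions and 7425424 to 16249119 of gene bodies in a library. For the members this came to 11 to 60 TSS reads for *Sesn1*, 21 to 104 for *Plk3* and 80 to 1695 for the others, and to 35 to 84 gene body reads for *Plk3* and 128 to 1688 for the others. Duplicates had been removed by the authors.

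The labelled cell type was compared with its markers. Of 10 muscle stem cell markers, 9 are listed. Among them, gene bodies of *Myod1* (means of 1091 TPM in Ctrl and 1179 TPM in Kmt5b sKO MuSCs), *Des* (443 and 737 TPM), *Pax7* (38.6 and 27.8 TPM) and *Myf5* (67.2 and 57.1 TPM) were transcribed in both groups. In the gene body 5 of the 9 had a fitted change above 0, as did 53.8% of all genes tested. Of 6 endothelial markers, 3 are listed, and they summed to between 2.50 and 5.05 TPM in a library. Of 8 immune markers, 3 are listed, and their gene bodies had means of 0.46 TPM (Ctrl) and 0.58 TPM (Kmt5b sKO) for *Itgam* and of 314 and 323 TPM for *Cd68*, while that of *Cd3e* held 4.31, 4.53 and 21.25 TPM across Ctrl, against 11.9, 9.48 and 14.2 TPM across Kmt5b sKO. In the TSS region *Itgam* and *Cd3e* had 0 reads in all libraries. The 6 listed fibroblast markers summed to 57.3 to 102 TPM in a Ctrl library and 60.3 to 65.6 TPM in a Kmt5b sKO library. The targeted gene does not check the genotype. The gene body of *Kmt5b* held 30.6, 35.4 and 38.5 TPM in the Ctrl libraries and 37.8, 35.0 and 42.6 TPM across Kmt5b sKO (limma, log2 fold change 0.14, adjusted p = 0.71), and its TSS region held 93.7, 87.3 and 101.5 RPM and 120.0, 107.0 and 113.2 RPM (log2 fold change 0.27, adjusted p = 0.72). The genotype of the libraries rests on their labels.

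p53, the product of *Trp53*, is a transcription factor that is held at a low level by the ubiquitin ligase MDM2 and accumulates after DNA damage, replication stress or nucleolar stress. It binds pairs of short half-sites in its target genes. Many targets halt the cell cycle or dampen growth signals, and others feed back on p53 itself, so that the response is limited in time. In muscle stem cells the p53 pathway is known for its part in the choice between self-renewal, differentiation and senescence. No binding of p53 was measured in these libraries.

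The stretch of DNA before the start of a member is shown for 4 of them, since the TSS region lies directly downstream of it. *Ccng1* passed the test in both regions, *Tob1* in the gene body alone, *Gadd45a* has a match to a p53 half-site close to its start, and *Ckap2* was the only member whose TSS values all lay lower in Kmt5b sKO MuSCs. Sequences are from RefSeq on GRCm38.p6, written 5′ to 3′ on the gene's own strand and ending before both the RefSeq start and the start listed by the authors. Capitals mark a match to the p53 half-site in *Ccng1*, *Gadd45a* and *Ckap2*, the TATA box TATAAA in *Tob1*, and, as the second capital stretch of *Ckap2*, the CHR element TTTGAA, which is known from promoters of G2 and mitosis genes. The windows lie at chr11:40755312-40755536 on the minus strand (*Ccng1*), chr6:67037408-67037557 on the minus strand (*Gadd45a*), chr8:22185820-22186069 on the minus strand (*Ckap2*) and chr11:94211304-94211453 on the plus strand (*Tob1*).
Ccng1: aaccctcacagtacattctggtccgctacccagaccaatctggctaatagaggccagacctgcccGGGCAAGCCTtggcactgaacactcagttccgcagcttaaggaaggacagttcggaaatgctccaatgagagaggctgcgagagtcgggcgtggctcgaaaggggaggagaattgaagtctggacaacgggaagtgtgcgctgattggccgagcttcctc
Gadd45a: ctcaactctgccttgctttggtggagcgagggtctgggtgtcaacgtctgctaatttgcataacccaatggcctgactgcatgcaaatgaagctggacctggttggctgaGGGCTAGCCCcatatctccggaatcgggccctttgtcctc
Ckap2: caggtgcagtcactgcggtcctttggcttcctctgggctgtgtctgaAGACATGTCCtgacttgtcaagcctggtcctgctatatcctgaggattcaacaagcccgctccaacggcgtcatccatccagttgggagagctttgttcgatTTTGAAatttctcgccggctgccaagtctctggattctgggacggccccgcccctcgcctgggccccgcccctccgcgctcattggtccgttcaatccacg
Tob1: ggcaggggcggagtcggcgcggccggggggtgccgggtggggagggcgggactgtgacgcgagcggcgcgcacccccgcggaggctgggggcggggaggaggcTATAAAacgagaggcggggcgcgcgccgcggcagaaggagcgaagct

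RefSeq windows from 250 bases before to 50 bases after a start were searched on both strands for the p53 half-site, pairs of half-sites, the TATA box TATAAA, the box of factor NF-Y (CCAAT), the site of SP1 (GGGCGG), the E-box (CACGTG), the CHR element (TTTGAA, or else TTCGAA) and the CArG box. Matches of different motifs, and matches of GGGCGG to itself, may overlap. The table of windows covered 9 members in 10 windows, as *Sesn1* has both of its starts there, and the window of *Trp53inp1* was not analysed here. A p53 half-site was found in the windows of *Ccng1* (-185 to -176 from the RefSeq start), *Gadd45a* (-40 to -31), *Ckap2* (-203 to -194) and *Sesn1* (-173 to -164, before the start that the authors list), and in 8.36% of all 32851 windows and 7.08% of the 14173 windows of listed genes. No member window held a pair of half-sites, which 0.073% of all windows do. TATAAA stood only in the *Tob1* window (13.6% of all windows) and the CHR element only in the *Ckap2* window (19.2%). CCAAT was found in 7 of the 10 windows (37.4% of all) and GGGCGG in 9 (35.7% of all and 59.7% of those of listed genes), while CACGTG and the CArG box were found in none. A match of letters is no evidence of binding, and p53 sites outside these windows were not searched.

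The question for the 10 members is whether polymerases on these genes became more numerous without KMT5B, and whether they did so at the start, along the gene, or both. The groups were compared with limma on log2(value + 0.5) over 12451 genes, with calls at a Benjamini-Hochberg adjusted p under 0.1, and all 10 members passed the filter on low values. In the TSS region, 1 of 10 members was called higher (*Ccng1*), where 0.932% of all genes tested were. In the gene body, 3 of 10 were called higher (*Trp53inp1*, *Ccng1* and *Tob1*), against 1.61% of all genes tested. No member was called lower in the TSS region (0.731% of all genes) or in the gene body (1.38%), and edgeR and DESeq2 on recovered reads called 0 lower as well. At an unadjusted p under 0.05, 0 members were lower, where 3.65% of all genes were in the TSS region and 6.46% along the body. By the same measure, 7 members were higher in the TSS region (7.35% of all genes) and 6 along the body (9.45%). For 6 members in the TSS region (10.2% of all genes) and for 6 along the body (12.0%), each Kmt5b sKO library exceeded each Ctrl library. The median log2 fold change of the 10 members was 0.66 at the TSS and 0.57 along the gene body, beside 0.081 and 0.023 over all genes tested.

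**Figure D1:**
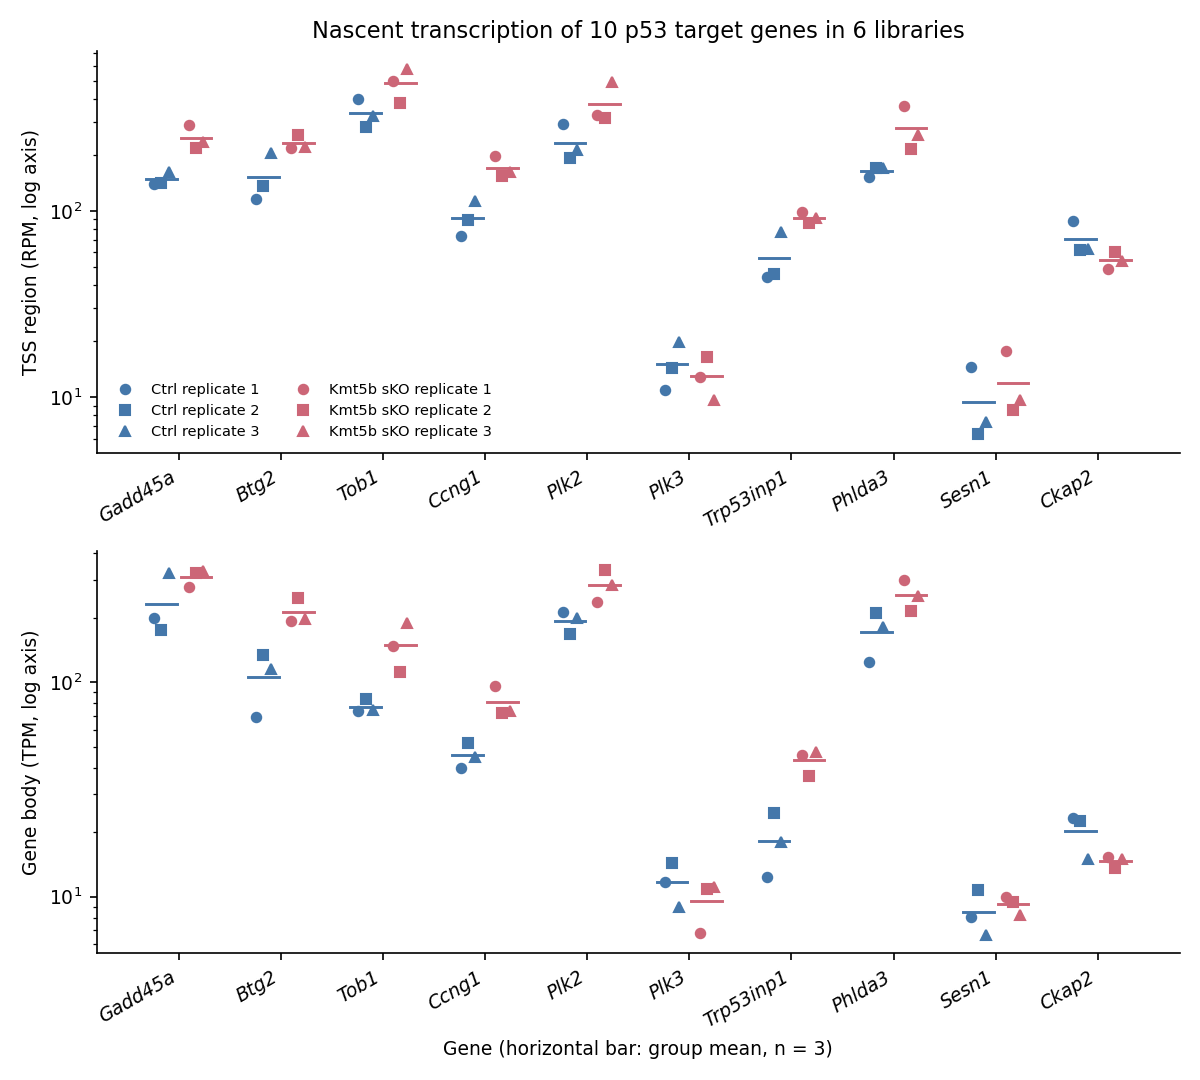
Nascent transcription of the 10 members in the TSS region (RPM, upper panel) and the gene body (TPM, lower panel), both on log axes. Each point is a library (blue Ctrl, red Kmt5b sKO, symbol by replicate number) and each bar a group mean (n = 3); the Kmt5b sKO points lie above all Ctrl points for 6 members in each panel, while *Plk3* and *Sesn1* overlap in both and *Ckap2* lies lower in the TSS region.

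*Gadd45a* encodes a small stress protein that binds PCNA and the CDK1 complex and restrains the step from G2 into mitosis. The gene has 4 exons on the minus strand of chr6:67035096-67037406 (GRCm38), and an antisense non-coding gene, *E230016M11Rik*, overlaps 808 nt of it. The authors counted by strand. The TSS region had 138, 141 and 163 RPM across Ctrl, against 288, 217 and 233 RPM across Kmt5b sKO (each given from replicate 1 to 3, as below), so that the groups did not overlap. The log2 fold change was 0.73 (SE 0.21), which did not pass the threshold (limma, adjusted p = 0.11). Its gene body, the most densely transcribed of the 10 in Ctrl MuSCs, held 200.5, 176 and 322 TPM across Ctrl, against 277, 325 and 330.4 TPM across Kmt5b sKO. Ctrl replicate 3 lay within the range of the Kmt5b sKO libraries. The log2 fold change in the gene body was 0.46 (SE 0.24; limma, adjusted p = 0.42). With single libraries left out it ran from 0.29 to 0.72, the latter without Ctrl replicate 3 (limma, adjusted p from 0.064 to 0.70).

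*Btg2* and *Tob1* belong to the BTG/TOB family of antiproliferative proteins, which bring the CCR4-NOT deadenylase to mRNAs. *Btg2* has 2 exons on the minus strand of chr1:134075170-134079120. TSS values were 116, 137 and 205 RPM across Ctrl, against 216, 254 and 219 RPM across Kmt5b sKO, and its gene body 68.8, 133 and 115 TPM and 194, 247 and 196 TPM. The groups were separate in both regions, by a narrow margin in the TSS region, where Ctrl replicate 3 came close to the lowest Kmt5b sKO library. The gene body changed by 1.05 on the log2 scale (SE 0.26), just outside the threshold (limma, adjusted p = 0.11), and the TSS region by 0.63 (SE 0.23; limma, adjusted p = 0.25).

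*Tob1* has 2 exons on the plus strand of chr11:94211454-94215495. It had the highest TSS values of the members, with 398, 282 and 321 RPM across Ctrl, against 499, 378 and 577 RPM across Kmt5b sKO. Here Kmt5b sKO replicate 2 lay below Ctrl replicate 1, and the log2 fold change of 0.53 (SE 0.24) did not pass (limma, adjusted p = 0.40). Its gene body held 73.4, 83.5 and 74.2 TPM across Ctrl, against 148, 112 and 190 TPM across Kmt5b sKO. The Ctrl libraries were close to each other and all lay below the Kmt5b sKO libraries. The gene body rose by 0.92 on the log2 scale (SE 0.20), or 1.90-fold (limma, adjusted p = 0.090).

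*Ccng1* encodes cyclin G1, which recruits the phosphatase PP2A to MDM2 and by this feeds back on p53. The gene has 6 exons on the minus strand of chr11:40748552-40755311. Its TSS region held 73.6, 89.1 and 113 RPM across Ctrl, against 197, 154 and 161 RPM across Kmt5b sKO. Its gene body held 39.8, 51.9 and 45.0 TPM across Ctrl, against 96.3, 72.3 and 73.2 TPM across Kmt5b sKO. In both regions every Kmt5b sKO library lay above every Ctrl library, and Kmt5b sKO replicate 1 was the highest. *Ccng1* rose by 0.90 on the log2 scale in the TSS region (SE 0.22, 1.87-fold; limma, adjusted p = 0.070) and by 0.81 in the gene body (SE 0.17, 1.76-fold; limma, adjusted p = 0.080). It was the only member called in both.

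*Plk2* and *Plk3* encode polo-like kinases of the stress response, which are distinct from the mitotic kinase PLK1. *Plk2* has 14 exons on the plus strand of chr13:110395046-110400844. The TSS region had 291, 192 and 213 RPM across Ctrl, against 326, 314 and 489 RPM across Kmt5b sKO, and its gene body 214, 167 and 198 TPM and 238, 335 and 283 TPM. The groups did not overlap in either region. The log2 fold changes of 0.69 in the TSS region (SE 0.24; limma, adjusted p = 0.22) and 0.55 in the gene body (SE 0.18; limma, adjusted p = 0.20) did not pass.

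*Plk3* has 15 exons on the minus strand of chr4:117128655-117133963, and the end of *Tctex1d4* on the other strand overlaps 84 nt of it. TSS values were 10.9, 14.4 and 19.7 RPM across Ctrl, against 12.8, 16.5 and 9.66 RPM across Kmt5b sKO. Its gene body held 11.7, 14.3 and 8.98 TPM across Ctrl, against 6.78, 10.9 and 11.1 TPM across Kmt5b sKO. The groups overlapped in both regions. The fitted values were -0.19 in the TSS region (95% confidence interval -0.91 to 0.53; limma, adjusted p = 0.91) and -0.28 in the gene body (-0.85 to 0.30; limma, adjusted p = 0.67). The upper ends of both intervals lie below the changes fitted for *Plk2* in the same regions, although the difference between both genes was not tested.

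*Trp53inp1* encodes a nuclear cofactor that promotes phosphorylation of p53 and also acts in autophagy. The gene has 4 exons on the plus strand of chr4:11156431-11174379. Its gene body held 12.3, 24.5 and 18.0 TPM across Ctrl, against 45.9, 36.5 and 47.4 TPM across Kmt5b sKO, and its TSS region 44.3, 46.0 and 77.1 RPM and 98.0, 86.5 and 91.1 RPM. The groups were separate in both regions, and in the gene body the lowest Kmt5b sKO library stood well clear of the highest Ctrl library. The gene body rose by 1.27 on the log2 scale (SE 0.25, 2.41-fold; limma, adjusted p = 0.075). This was the largest change of the 10 members in either region, above that of 98.7% of the genes tested. The TSS region, with 0.76 (SE 0.24), did not pass (limma, adjusted p = 0.16).

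*Phlda3* encodes a protein with little more than a pleckstrin homology domain, which competes with AKT for membrane lipids and so restrains AKT signalling. It has 2 exons on the plus strand of chr1:135766119-135769136, and its whole TSS region lies in the first exon. The TSS region held 152, 169 and 169 RPM across Ctrl, against 367, 216 and 255 RPM across Kmt5b sKO, and the gene body 124, 209.8 and 181 TPM and 298, 214 and 253 TPM. The groups did not overlap, but in the gene body Ctrl replicate 2 and Kmt5b sKO replicate 2 were nearly level. The log2 fold changes were 0.74 in the TSS region (SE 0.23; limma, adjusted p = 0.15) and 0.59 in the gene body (SE 0.23; limma, adjusted p = 0.27).

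*Sesn1* encodes a sestrin, a stress protein that holds back mTORC1. The authors list the shorter of its coding isoforms, with 10 exons on the plus strand of chr10:41887439-41908424, and transcription from the upstream start also crosses this body. It was the least transcribed member in both regions. The TSS region held 14.5, 6.32 and 7.39 RPM across Ctrl, against 17.7, 8.58 and 9.66 RPM across Kmt5b sKO, and the gene body 8.07, 10.8 and 6.63 TPM and 9.96, 9.49 and 8.20 TPM. The groups overlapped in both. The log2 fold changes were 0.35 in the TSS region (95% confidence interval -0.49 to 1.20; limma, adjusted p = 0.84) and 0.13 in the gene body (-0.33 to 0.60; limma, adjusted p = 0.82). The interval of the gene body lies below the changes fitted for *Trp53inp1*, *Btg2*, *Tob1* and *Ccng1*, and holds those of *Plk2*, *Phlda3* and *Gadd45a*. It overlaps the intervals of *Btg2*, *Tob1* and *Ccng1*, and the differences between genes were not tested.

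*Ckap2* encodes a microtubule-associated protein of the mitotic spindle that is made in G2 and mitosis and has also been linked to p53. The gene has 9 exons on the minus strand of chr8:22168160-22185819. Its TSS region held 87.9, 61.5 and 62.7 RPM across Ctrl, against 48.8, 60.1 and 53.8 RPM across Kmt5b sKO, all of the latter below all of the former, as for 5.33% of the genes tested. The margin was narrow, between Ctrl replicate 2 (107 reads) and Kmt5b sKO replicate 2 (91 reads). Its gene body held 23.2, 22.7 and 15.0 TPM across Ctrl, against 15.3, 13.6 and 15.0 TPM across Kmt5b sKO. Ctrl replicate 3 lay within the Kmt5b sKO range in the gene body. The fitted changes of -0.36 in the TSS region (SE 0.23; limma, adjusted p = 0.63) and -0.43 in the gene body (SE 0.19; limma, adjusted p = 0.33) did not pass. With single libraries left out the gene body change ran from -0.63, without Ctrl replicate 3, to -0.32 (limma, adjusted p from 0.057 to 0.63).

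**Figure D2:**
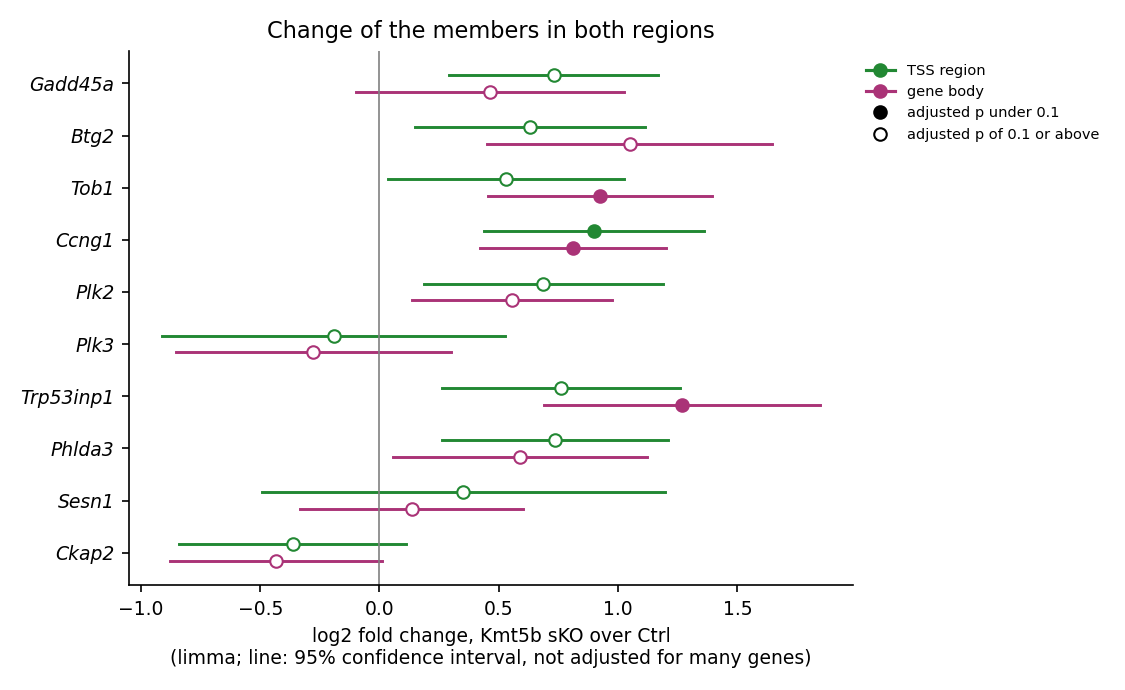
log2 fold change of each member between Kmt5b sKO and Ctrl MuSCs in the TSS region (green) and the gene body (purple), with 95% confidence intervals from limma that are not adjusted for the number of genes. Filled points passed an adjusted p under 0.1; these are *Ccng1* in both regions and *Tob1* and *Trp53inp1* in the gene body, while *Plk3* and *Ckap2* lie left of 0 in both regions.

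The order of the members by level was described in Ctrl MuSCs. In the TSS region, where all windows have the same length, the order of mean RPM ran from *Tob1* (334 ± 59.2, SD, n = 3) through *Plk2*, *Phlda3*, *Btg2*, *Gadd45a*, *Ccng1*, *Ckap2* and *Trp53inp1* to *Plk3* (15.0 ± 4.44) and *Sesn1* (9.41 ± 4.46). Neighbours whose Ctrl libraries did not overlap were *Plk2* and *Phlda3*, *Gadd45a* and *Ccng1*, and *Trp53inp1* and *Plk3*, and the other neighbours did overlap. In the gene body, which is per length, *Gadd45a* (233 ± 78.1 TPM) came first, followed by *Plk2*, *Phlda3*, *Btg2*, *Tob1*, *Ccng1*, *Ckap2*, *Trp53inp1*, *Plk3* and *Sesn1* (8.48 ± 2.09 TPM). Only *Tob1* and *Ccng1*, and *Ccng1* and *Ckap2*, were neighbours without overlap. *Gadd45a*, *Plk2* and *Phlda3* ranked above 99.0%, 98.7% and 98.5% of the tested genes by mean gene body value over the 6 libraries, and *Sesn1* above 30.4%.

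Pausing was compared next, since *Tob1*, *Btg2* and *Trp53inp1* had larger fitted changes in the gene body than in the TSS region. The pausing index of *Trp53inp1* was 3.60, 1.88 and 4.30 across Ctrl, against 2.13, 2.37 and 1.92 across Kmt5b sKO. That of *Tob1* was 5.43, 3.38 and 4.33 and 3.38, 3.39 and 3.04, and that of *Btg2* was 1.68, 1.03 and 1.78 and 1.11, 1.03 and 1.11. In all of these genes Ctrl replicates 1 and 3 were above the Kmt5b sKO libraries and Ctrl replicate 2 was not, so the groups overlapped. The differences of the log2 index were -0.53 for *Trp53inp1* (95% confidence interval -1.26 to 0.21), -0.42 for *Btg2* (-1.06 to 0.22) and -0.40 for *Tob1* (-0.95 to 0.16).

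The index of *Ccng1*, which rose in both regions, was 1.85, 1.71 and 2.52 across Ctrl, against 2.04, 2.13 and 2.20 across Kmt5b sKO. Its log2 difference was 0.087, with an interval from -0.45 to 0.63. *Gadd45a* had the lowest index of the members in Ctrl MuSCs, 0.67 ± 0.15 (SD, n = 3), and was the only one without overlap with its neighbour in the order, *Phlda3* (0.99 ± 0.21). The log2 differences of the 6 members other than *Trp53inp1*, *Btg2*, *Tob1* and *Ccng1* lay between 0.078 (*Ckap2*) and 0.27 (*Gadd45a*). No member was called in the pausing index by limma (each with an adjusted p of 0.9997), nor was any of the 11698 genes tested (0.0%). At an unadjusted p under 0.05, 0 members and 3.86% of all genes differed, and the tests of edgeR and DESeq2 on recovered reads called 0 members. As the log2 index is the difference between both regions, this is also the test of whether a member changed differently at its start and along its body, and no such difference was shown.

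**Figure D3:**
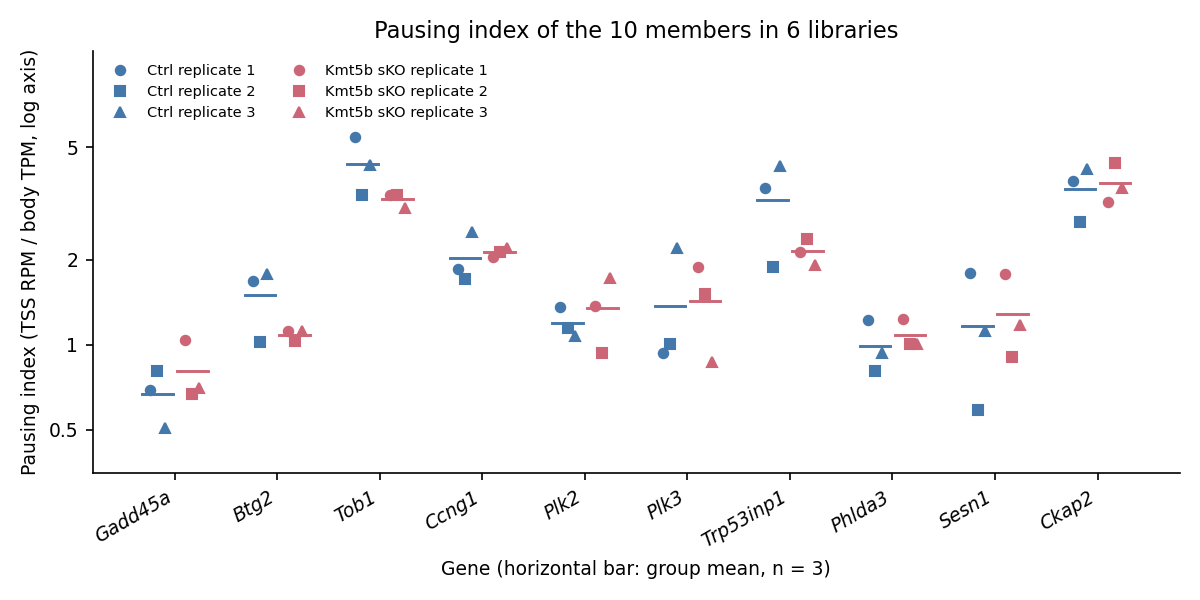
Pausing index (TSS RPM over gene body TPM, log axis) of the 10 members by library, with the same colours and symbols as the plot of levels and bars for group means (n = 3). Ctrl and Kmt5b sKO points overlap for all 10 members, and *Tob1*, *Ckap2* and *Trp53inp1* have the highest and *Gadd45a* the lowest Ctrl means.

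The calls depended on single libraries. With Ctrl replicate 3 left out, 4 members were called in the TSS region (*Btg2*, *Ccng1*, *Gadd45a* and *Trp53inp1*) and 6 in the gene body (*Btg2*, *Ccng1*, *Gadd45a*, *Tob1* and *Trp53inp1* higher, *Ckap2* lower). Calls over all 12451 genes rose in that setting too, from 207 to 270 in the TSS region and from 372 to 836 in the gene body. With Ctrl replicate 1 or any Kmt5b sKO replicate left out, 0 members were called in either region, and 0 of all genes tested were called in the gene body. The fold changes moved as well. That of *Ccng1* stayed between 0.75 and 1.06 in the TSS region and between 0.68 and 0.91 in the gene body, that of *Trp53inp1* between 1.02 and 1.50 in the gene body and that of *Tob1* between 0.74 and 1.12 in the gene body. Among the members not called, the gene body change ran from 0.29 (without Ctrl replicate 2) to 0.72 (without Ctrl replicate 3) for *Gadd45a*, from 0.37 (without Ctrl replicate 1) to 0.75 (without Ctrl replicate 2) for *Phlda3*, from 0.77 to 1.24 for *Btg2*, from 0.43 to 0.68 for *Plk2*, from -0.45 to -0.058 for *Plk3* and from -0.63 to -0.32 for *Ckap2*. TSS changes that were not called ran from 0.62 to 1.02 for *Trp53inp1*, from 0.45 to 0.86 for *Btg2*, from 0.48 to 0.86 for *Plk2*, from 0.39 to 0.70 for *Tob1*, from 0.52 to 0.90 for *Phlda3*, from 0.61 to 0.81 for *Gadd45a*, from 0.044 to 0.70 for *Sesn1* and from -0.45 to -0.20 for *Ckap2*. Adjusted p-values from limma then ran from 0.033 to 0.34 for *Ccng1* in the TSS region, from 0.078 to 0.24 for *Ccng1*, from 0.074 to 0.24 for *Trp53inp1* and from 0.098 to 0.26 for *Tob1* in the gene body. *Plk3* in the TSS region and *Sesn1* in the gene body changed sign when Ctrl replicate 3 was left out. With a count test on the recovered reads, *Btg2* was also called in the gene body by edgeR (4 members) and *Btg2* and *Plk2* by DESeq2 (5 members), while *Ccng1* was not called in the TSS region by edgeR. The count tests called more gene bodies over all 12451 genes, 748 by edgeR and 1295 by DESeq2, against 372 by limma.

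**Figure D4:**
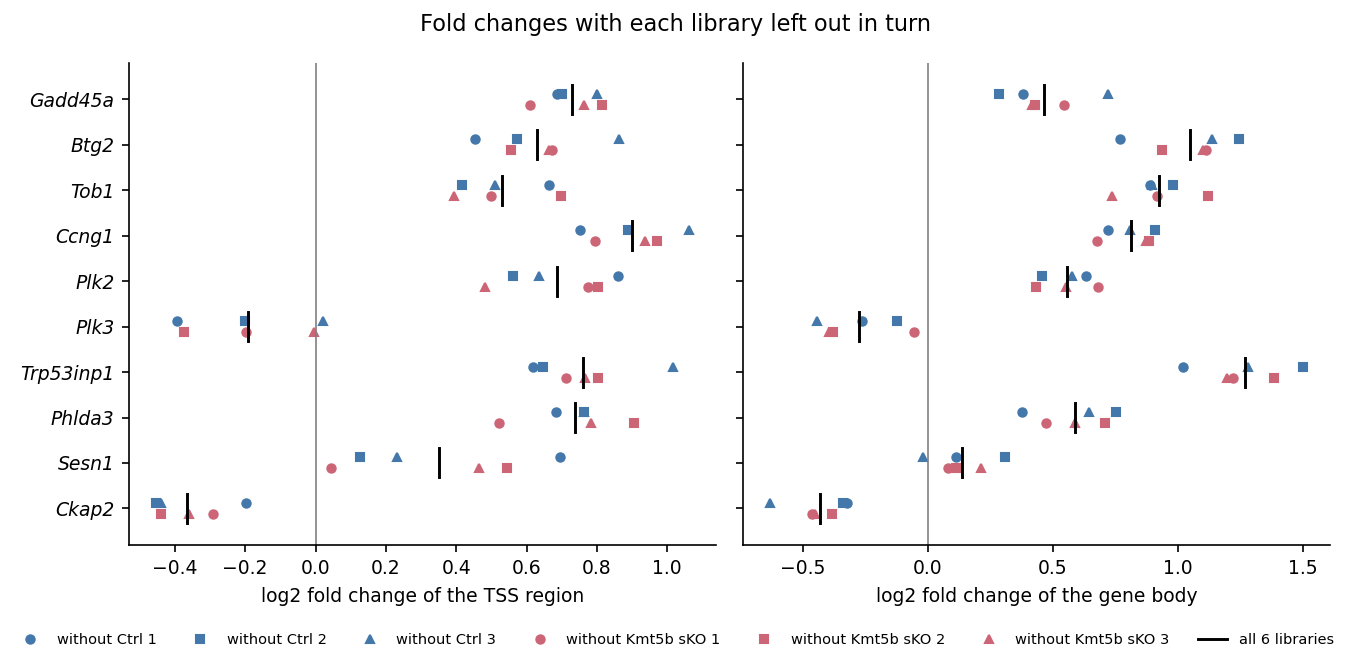
log2 fold change of each member in the TSS region (left) and the gene body (right) with each of the 6 libraries left out in turn (points, coloured by the group of the library left out) and with all 6 (black lines). The points of *Ccng1*, *Trp53inp1*, *Tob1* and *Btg2* stay right of 0.39 in both regions, while *Plk3* and *Sesn1* come to 0 or cross it.

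The closest relatives of the members were set beside them, 14 of 16 of which are listed and were tested. In the gene body 0 of 14 were called higher (1.61% of all genes) and 2 lower (1.38%), *Plk4* and *Ckap2l*. The median log2 fold change of the 14 was 0.25. *Plk1* and *Ckap2l* are counted again below among the genes of G2 and mitosis, and *Sesn2* among the other p53 targets. At an unadjusted p under 0.05, 2 were higher (9.45% of all genes) and 3 lower (6.46%). On recovered reads edgeR called 0 higher and 3 lower, and DESeq2 1 higher and 3 lower. Over all genes edgeR called 395 higher and 353 lower, and DESeq2 713 higher and 582 lower. *Plk4*, a kinase of centriole duplication, held 27.7 ± 2.46 TPM (SD, n = 3) in Ctrl gene bodies and 13.9 ± 2.28 TPM (SD, n = 3) in those of Kmt5b sKO MuSCs, without overlap (limma, log2 fold change -0.98, adjusted p = 0.065). *Plk1*, the mitotic kinase of the family, had 48.2, 39.0 and 29.3 TPM across Ctrl, against 18.7, 18.4 and 26.1 TPM across Kmt5b sKO, also without overlap, but did not pass (limma, log2 fold change -0.86, adjusted p = 0.13). Of the polo-like kinases, *Plk2* alone had a positive fitted change in the gene body.

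*Ckap2l*, a mitotic spindle protein like *Ckap2*, held 28.4, 23.9 and 17.7 TPM across Ctrl, against 10.3, 11.7 and 10.3 TPM across Kmt5b sKO and fell by 1.06 on the log2 scale (limma, adjusted p = 0.069). *Phlda1*, a relative of *Phlda3*, held 245, 226 and 387 TPM across Ctrl, against 410.5, 506 and 573 TPM across Kmt5b sKO, without overlap and without passing the test (limma, log2 fold change 0.82, adjusted p = 0.17). *Ccng2*, the other cyclin G gene, had a mean of 43.5 TPM across Ctrl, against 35.9 TPM across Kmt5b sKO (limma, log2 fold change -0.29, adjusted p = 0.54). Whether *Ccng1* and *Ccng2* differ in their change was not tested. *Gadd45b* and *Gadd45g*, the other GADD45 genes, had gene body log2 fold changes of 0.47 and 0.23, *Btg1*, *Btg3* and *Tob2* had 0.49, 0.069 and 0.26, *Trp53inp2* had 0.46, and *Sesn2* and *Sesn3* had 0.38 and 0.027, none of which passed.

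In the TSS region *Btg4* alone was called among the 14 relatives, upwards, where 0.932% of all genes were called higher. At an unadjusted p under 0.05, 4 relatives were higher there (7.35% of all genes) and 3 lower (3.65%). *Btg4* had 1.69, 2.87 and 2.08 RPM across Ctrl, against 7.54, 5.94 and 14.7 RPM across Kmt5b sKO (limma, log2 fold change 1.79, adjusted p = 0.086). It had no more than 32 reads in any library. With single libraries left out, its adjusted p from limma ran from 0.054 to 0.34. With a pseudocount of 0.1 its adjusted p from limma was 0.11.

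**Figure D5:**
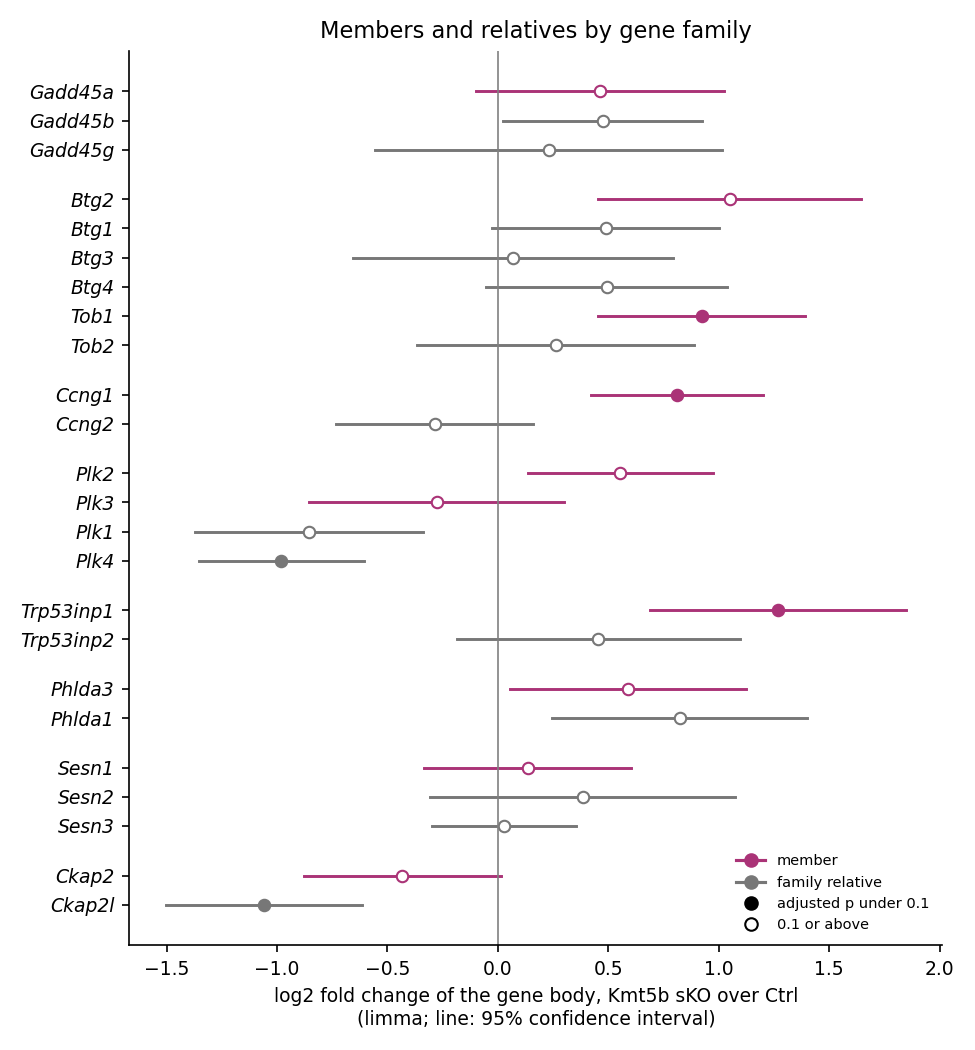
log2 fold change of the gene body between Kmt5b sKO and Ctrl MuSCs for the members (purple) and their family relatives (grey), grouped by family, with 95% confidence intervals from limma. Filled points passed an adjusted p under 0.1; in the polo-like kinase family *Plk4* lies at -0.98 and *Plk2* at 0.55, and *Ckap2l* lies lower than *Ckap2*.

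The members were also read against the rest of the p53 pathway. Of 40 other known p53 targets, 36 were tested. In the gene body 2 were called higher, *Mdm2* and *Ptp4a3* (1.61% of all genes), and 0 lower (1.38%), while 16 passed an unadjusted p under 0.05 upwards (9.45% of all genes) and 1 downwards (6.46%), and 28 of 36 had a fitted change above 0 (53.8% of all genes). Their median log2 fold change was 0.29. *Mdm2*, the ubiquitin ligase that closes the main feedback loop on p53, held 96.8, 114 and 140.3 TPM across Ctrl, against 221, 239 and 210.0 TPM across Kmt5b sKO (limma, log2 fold change 0.94, adjusted p = 0.068). The groups overlapped in the TSS region of *Mdm2* (limma, log2 fold change 0.29, adjusted p = 0.70). Its log2 pausing index differed by -0.65 (95% confidence interval -1.22 to -0.082), which did not pass (limma, adjusted p = 0.9997). *Ptp4a3*, a phosphatase, held 14.6, 19.5 and 13.3 TPM across Ctrl, against 31.5, 27.9 and 33.2 TPM across Kmt5b sKO (limma, log2 fold change 0.96, adjusted p = 0.068). *Cdkn1a*, which encodes the CDK inhibitor p21, had the highest Ctrl level of the list, with 462, 600.3 and 478 TPM across Ctrl, against 859, 706 and 969 TPM across Kmt5b sKO, all higher, but did not pass (limma, log2 fold change 0.72, adjusted p = 0.15). In the TSS region 0 of the 36 were called by limma, 7 were higher at an unadjusted p under 0.05 (7.35% of all genes), and edgeR and DESeq2 on recovered reads each called 1 higher. Over all genes these tests called 129 and 134 higher there.

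*Trp53* itself had fitted changes below 0. The TSS region had 49.9, 33.3 and 79.2 RPM across Ctrl, against 24.9, 36.3 and 28.1 RPM across Kmt5b sKO, and its gene body 68.1, 63.7 and 69.1 TPM and 51.9, 63.6 and 53.6 TPM. The fitted changes of -0.78 and -0.25 did not pass (limma, adjusted p = 0.27 and 0.41). Of 16 genes for p53 and its direct regulators 14 were tested, with a median log2 fold change of -0.011 in the gene body. *Mdm2*, already counted among the other p53 targets, and *Trp63* passed upwards in the gene body (1.61% of all genes). In the TSS region *Trp63* alone passed upwards (0.932% of all genes). *Trp63*, a relative of p53, had 0, 0.57 and 0.19 RPM in Ctrl TSS regions, at most 3 reads in each library, and 3.61, 7.26 and 14.7 RPM across Kmt5b sKO, and no fold is given.

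Other groups of genes moved in the same libraries. Of 30 genes of G2 and mitosis, the phase in which *Ckap2* is known to be made, 21 were called lower in the gene body (1.38% of all genes) and 10 in the TSS region (0.731%), 0 were called higher, and none had a fitted change above 0. Their summed gene body level was between 828 and 1292 TPM in Ctrl and between 554 and 593 TPM across Kmt5b sKO, and their median log2 fold change was -1.02, beside -0.43 for *Ckap2*. With Ctrl replicate 1 or any Kmt5b sKO replicate left out, 0 of them were called in the gene body, 7 without Ctrl replicate 2 and 28 without Ctrl replicate 3. Over all genes, 0 were called in the former settings, 261 without Ctrl replicate 2 and 836 without Ctrl replicate 3. Of 16 markers of myogenic differentiation, 2 were called higher in the gene body (*Myl1* and *Tnnc1*, beside 1.61% of all genes) and 3 in the TSS region (*Mef2c*, *Myl1* and *Tnnc1*, beside 0.932%). In each region 15 had a fitted change above 0, as did 53.8% of all genes in the gene body and 58.2% in the TSS region. At an unadjusted p under 0.05 (limma), 8 were higher in the gene body (9.45% of all genes) and 12 in the TSS region (7.35%). The median log2 fold change of these markers was 0.84 in the gene body and 0.80 in the TSS region, larger than the 0.57 and 0.66 of the 10 members. Their summed gene body level was 4656, 5829 and 3136 TPM across Ctrl, against 7056, 6298 and 8813 TPM across Kmt5b sKO, beside 753, 871 and 969 TPM and 1314, 1361 and 1393 TPM for the 9 members other than *Ckap2*. The part of the cell cycle and of differentiation in the members' changes was not tested. In such bulk libraries more cells of a state and more transcription per cell cannot be told apart.

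Of 22 immediate early and stress genes, which can rise while cells are dissociated and handled, 0 were called by limma in either region. At an unadjusted p under 0.05, 6 were higher (7.35% of all genes) and 1 lower (3.65%) in the TSS region, and 5 were higher (9.45%) and 0 lower (6.46%) in the gene body. In the gene body 19 of the 22 had a fitted change above 0 (53.8% of all genes), and in the TSS region 14 had (58.2%). Tests on recovered reads called 0 by edgeR in either region. DESeq2 called 0 in the TSS region and 3 higher along the gene body, where it called 713 of all genes higher. Their summed gene body level was between 2669 and 3683 TPM in Ctrl and between 3528 and 4613 TPM across Kmt5b sKO, which overlapped, and their median log2 fold change in the gene body was 0.37. Their part in the members' changes was not tested.

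The genes whose gene body values over the 6 libraries were most like the mean of the 9 members other than *Ckap2* included *Ppp1r3d* (Pearson r = 0.996) and *Spock1* (0.993). Most like *Ckap2* were *Neurl1b* (0.997), *Tnrc18* (0.995) and *Ston2* (0.995), which shared its high Ctrl replicates 1 and 2 and a Ctrl replicate 3 at or near the Kmt5b sKO level. With 6 libraries and 12451 genes to choose from, such values are a description of these libraries.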

How the data were processed

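PRO-seq libraries of 3 Ctrl and 3 Kmt5b sKO samples were used. Per the submitters' processing notes the authors used FastQC 0.11.8, Trimmomatic 0.39, STAR 2.6.1d and Picard 2.18.16 on GRCm38 (mm10). The authors deposited the TSS region as RPM (scaled over all isoforms) and the gene body as TPM, with 1 isoform per gene. TPM is the unit that the methods give throughout, but the steps between low values showed RPM for the TSS region, whose windows all have the same length. Whole reads were recovered from these steps for 99.6% to 100% of the TSS values (tolerance 0.006 in the unit of the file) and 100% of the gene body values of bodies under 2000 nt, which gives the depth. No per-sample column was left unused.

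Genes outside X and Y whose means reached 0.5 in the TSS region and along the body (12451 of 14546) were tested as log2(value + 0.5) with limma 3.58.1 and a trend (R 4.3.3), by genotype alone. Fold changes on this scale understate those of low genes. The pausing index was tested without a pseudocount. Alternatives were other pseudocounts, no filter, no trend, X and Y, equal medians, a replicate block, edgeR 4.0.16 and DESeq2 1.42.0 on recovered reads and each library left out, and the tests were tried on simulated data. As each library is scaled to a fixed total, a change of total transcription cannot appear. The members and all gene lists were chosen with earlier results of these data known, and the genes named are the members, their relatives, called genes and the most transcribed examples of the lists, and the 3 genes most like each profile, of which 1 is not reported here. Sequences came from RefSeq, and Python 3.11.15 was used for tables and figures.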

Additional observations from a re-analysis of the deposited data

How the results depend on the processing

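The members called (TSS region 1, gene body 3, pausing index 0) moved with several choices. In the TSS region 0 were called with no filter on low values, without a trend, with equal library medians and by edgeR, while DESeq2 called 1. Over all genes these settings called 0, 0, 225, 279 and 295 there, in the same order. In the gene body DESeq2 called 5, where it called 1295 of all genes, against 372 by limma. With the replicate number as a replicate block 0 were called in both regions and 0 of all genes. The labels do not say whether same-numbered libraries belong together. Same-numbered libraries deviated from their group means with r between -0.16 and -0.034 in the TSS region and between -0.33 and -0.15 in the gene body. With 3 libraries in a group these values cannot decide whether the numbers pair the libraries. With single libraries left out, 0 to 4 members were called in the TSS region and 0 to 6 in the gene body. Over all genes this ran from 1 to 408 in the TSS region and from 0 to 836 in the gene body. In the pausing index 0 were called under every alternative run.

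The sign of a member's change was kept under every alternative that used all 6 libraries. With single libraries left out, the log2 fold change of *Plk3* ran from -0.39 to 0.020 in the TSS region and that of *Sesn1* from -0.019 to 0.31 in the gene body. In the pausing index the changes ran from -0.024 to 0.25 for *Ccng1*, from -0.20 to 0.61 for *Sesn1*, from -0.071 to 0.37 for *Plk2*, from -0.15 to 0.49 for *Plk3* and from -0.11 to 0.21 for *Ckap2*. The causes were not tested.

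List counts were recomputed after seeing the data. Over all genes, 0 were called in the TSS region without the filter, without the trend or with the replicate block. With the block, 0 were called in the gene body too. In the TSS region edgeR called 129 genes higher and 150 lower, and DESeq2 134 and 161. In the gene body 284 were higher and 230 lower with equal medians, 395 and 353 by edgeR, and 713 and 582 by DESeq2. Of the other p53 targets, 1 was called higher in the TSS region by edgeR and by DESeq2 and 0 to 1 with a library left out, and in the gene body 4 with equal medians, 6 by edgeR, 9 by DESeq2, 0 with the replicate block and 0 to 5 with a library left out. Of the G2 and mitosis genes, 0 were called lower in the TSS region without the filter, the trend or with the replicate block, 17 by edgeR and by DESeq2 and 0 to 19 with a library left out, and in the gene body 0 with the replicate block and 0 to 28 with a library left out. Of the differentiation markers, 0 were called higher in the TSS region without the filter, the trend or with the replicate block, 6 by DESeq2 and 0 to 8 with a library left out, and in the gene body 0 with the replicate block, 5 by edgeR, 8 by DESeq2 and 0 to 4 with a library left out. Of all genes called in the TSS region, 56.0% were higher in Kmt5b sKO MuSCs, and 45.4% by DESeq2. Depth limits *Sesn1* and *Plk3* most, with 11 and 21 TSS reads in their shallowest libraries.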
